A study of Mus musculus with 50 samples.

Results

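Bmp4, Bmp7, Id1, Id2, Id3, Smad6, Msx1 and Msx2 are 8 mouse genes that encode ligands, targets and a feedback inhibitor of bone morphogenetic protein (BMP) signalling. They were taken by gene symbol from the expression tables of a study of embryonic stem (ES) cells that asked which developmental genes depend on β-catenin and the proteins bound to it. An FPKM table of 17043 genes held 7 of the 8, Msx1 not being listed in it, and 3 TPM tables of 55421 genes each held all 8. Unlike the TPM tables, the FPKM table held no value of 0 in its 12 libraries, so genes at 0 in any library may be missing from it. The tables carried 32 RNA libraries, and 18 other samples of the series were not analysed here.

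The first table described V6.5 mouse ES cells in defined medium with inhibitors of MEK and GSK3, called 2i, which carried a short hairpin RNA against β-catenin (shBcat, 2 libraries), against E2F6 (shE2F6, 2 libraries) or, by its label, shHP1r (2 libraries), or a mock hairpin (shGFP, 6 libraries). The second described an ES line labelled QKO, an abbreviation the labels do not spell out, in 2i at 48 h with shBcat or shGFP (3 libraries each). The third followed V6.5 cells in 2i and after 24 and 48 h as epiblast-like cells (epiLC), the formative state that ES cells enter in epiLC medium (2 libraries each). The last held V6.5 epiLC that carried shBcat, sampled after 24, 48 and 96 h, beside controls sampled after 96 h (2 libraries each). No hairpin is named for the controls. The labels do not say that replicates were separate cultures, so the spread between them may be technical.

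BMPs are secreted dimers that bind paired type I and type II receptors, which phosphorylate Smad1 and Smad5 so that these enter the nucleus with Smad4. The Id genes are direct targets in many cells, and their proteins block basic helix-loop-helix factors by binding E-proteins such as Tcf3, Tcf4 and Tcf12. In mouse ES cells, BMP4 acting through Id genes is known to support self-renewal with LIF, and in the embryo BMP signals later act on mesoderm, germ cells and ectoderm. GSK3 inhibition, part of 2i, stabilises β-catenin.

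All 8 members are protein-coding, and their positions are given from RefSeq on build GRCm38.p6. Of the ligands, Bmp4 (ENSMUSG00000021835) lies at chr14:46383525-46390669 and Bmp7 (ENSMUSG00000008999) at chr2:172868012-172940321. The Id targets are Id1 (ENSMUSG00000042745) at chr2:152736251-152737410, Id2 (ENSMUSG00000020644) at chr12:25093799-25096092 and Id3 (ENSMUSG00000007872) at chr4:136143822-136145392. The inhibitor Smad6 (ENSMUSG00000036867) lies at chr9:63953076-64022085. The homeobox targets are Msx1 (ENSMUSG00000048450) at chr5:37820491-37824585 and Msx2 (ENSMUSG00000021469) at chr13:53466881-53472780.

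Values are given per library, and each table was scaled on its own, so levels were tested only within a table. FPKM and TPM are both per transcript length, but their scales differ. The test was limma on log2(value + 1) over all genes that reached 1 in at least 2 libraries of a table, with p-values adjusted by Benjamini-Hochberg over all genes tested and a threshold of 0.05. All log2 changes below are on that scale, which understates the change of genes with low values, and the ratio of mean levels is given beside it where it helps. All 7 listed members passed the filter on low values in the FPKM table, 7 of 8 in the QKO table (Msx1 did not), 8 of 8 in the table of 2i and control epiLC, and 7 of 8 in the table of shBcat epiLC (Msx2 did not). A gene could pass through the groups where it was high. In the FPKM table Id1 reached 1 FPKM only in shGFP replicate 5 (1.18 FPKM) and shHP1r replicate 1 (1.06 FPKM). No shBcat library there reached 1 FPKM for Id1, Id3 or Msx2. In the table of 2i and control epiLC, Msx2 reached 1 TPM only in 2i and Msx1 only in epiLC.

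The gene named by each hairpin was low in its libraries. Ctnnb1, which encodes β-catenin, had 6.58 to 6.61 FPKM in V6.5 shBcat cells against 88.8 to 134 FPKM in shGFP cells, E2f6 2.57 to 3.54 FPKM in shE2F6 cells against 8.98 to 10.7 FPKM in shGFP cells, and Cbx3, which encodes an HP1 protein, 6.6 to 7.25 FPKM in shHP1r cells against 56.7 to 71.2 FPKM in shGFP cells. In the TPM tables Ctnnb1 had 48.4 to 82.4 TPM in QKO shBcat cells against 490 to 528 TPM in QKO shGFP cells. At 96 h of epiLC it had 142 to 145 TPM with shBcat against 441 to 448 TPM in the controls. Mitochondrially encoded transcripts took 22.3 to 22.9% of the shE2F6 libraries and 19.3 to 20.4% of shGFP replicates 3 and 4, against 6.23 to 10.3% of the other 8 FPKM libraries. The 6 shGFP libraries formed 3 close pairs, with a median absolute log2 difference of 0.0506 to 0.0657 within a pair and 0.158 to 0.371 between pairs, and the 2 V6.5 shBcat libraries differed by 0.0537 on the same measure. All 10 markers of naive ES cells were detected in the ES groups, and from 2i to 24 h of epiLC 10 of 10 of them fell and 9 of 9 formative markers rose.

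In V6.5 ES cells in 2i, 3 of the 7 members tested fell with shBcat, the targets Id1, Id3 and Msx2, while the ligands Bmp4 and Bmp7, the target Id2 and the inhibitor Smad6 did not pass the threshold. Over all genes, 8.71% were called in this comparison and 5.21% were called lower. Lower values without overlap between the groups were seen for 17.6% of all genes.

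Id3, an inhibitor of basic helix-loop-helix factors, had 0.174 and 0.262 FPKM in the shBcat libraries, against 1.85, 1.61, 2.87, 3.38, 3.32 and 3.19 FPKM in the shGFP libraries. The groups did not overlap, and the highest shBcat value lay far below the lowest shGFP value. The mean was 0.218 ± 0.062 FPKM with shBcat (SD, n = 2) and 2.7 ± 0.78 FPKM with shGFP (SD, n = 6), a ratio of 0.0806 and a log2 change of -1.58 (SE 0.33, limma adjusted p = 0.0163).

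Id1, a related inhibitor of differentiation, had 0.192 and 0.236 FPKM with shBcat, against 0.941, 0.639, 0.777, 0.965, 1.18 and 0.854 FPKM with shGFP. These groups did not overlap either, and in the shBcat libraries Id1 and Id3 lay at about the same level. Its log2 change was -0.64 (SE 0.14, limma adjusted p = 0.0187), with a ratio of means of 0.24. Msx2, a homeobox repressor induced by BMP in many embryonic tissues, had 0.515 and 0.275 FPKM with shBcat, against 1.92, 1.62, 2.03, 2.48, 1.53 and 1.24 FPKM with shGFP. It too showed no overlap, with a log2 change of -0.998 (SE 0.16, limma adjusted p = 0.00398) and a ratio of means of 0.219. None of the 3 genes exceeded 3.38 FPKM in these libraries. Without either shBcat library, the adjusted p was 0.175 to 0.215 for Id1 and 0.156 to 0.184 for Id3. For Msx2 it was 0.0377 without shBcat replicate 1 and 0.102 without replicate 2. With libraries averaged in pairs, which leaves 1 shBcat value against 3 shGFP values, the log2 changes of the 3 genes stayed the same in direction but no gene in the table was called.

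Id2, the other Id gene here, was not lower in these values. It had 3.67 and 3.12 FPKM with shBcat, against 2.5, 2.46, 2.05, 1.76, 3.79 and 3.57 FPKM with shGFP, and the shBcat values lay inside the shGFP range (log2 change 0.28, SE 0.26, limma adjusted p = 0.578). The difference between the changes of Id2 and Id3 was not tested. The ligand Bmp4 had 0.66 and 0.722 FPKM with shBcat, against 1.28, 1.26, 1.93, 1.88, 0.654 and 0.718 FPKM with shGFP. The shBcat libraries thus sat beside shGFP replicates 5 and 6 and below the other shGFP libraries, and the log2 change of -0.40 (SE 0.23) had a limma adjusted p of 0.333. Bmp7, a ligand of the group that includes Bmp5 and Bmp6, averaged 3.26 FPKM with shBcat and 4.14 FPKM with shGFP (limma adjusted p = 0.457). Smad6, which binds BMP receptors and Smad1 and is itself induced by BMP, averaged 1.3 FPKM with shBcat and 1.45 FPKM with shGFP (limma adjusted p = 0.921).

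**Figure D1:**
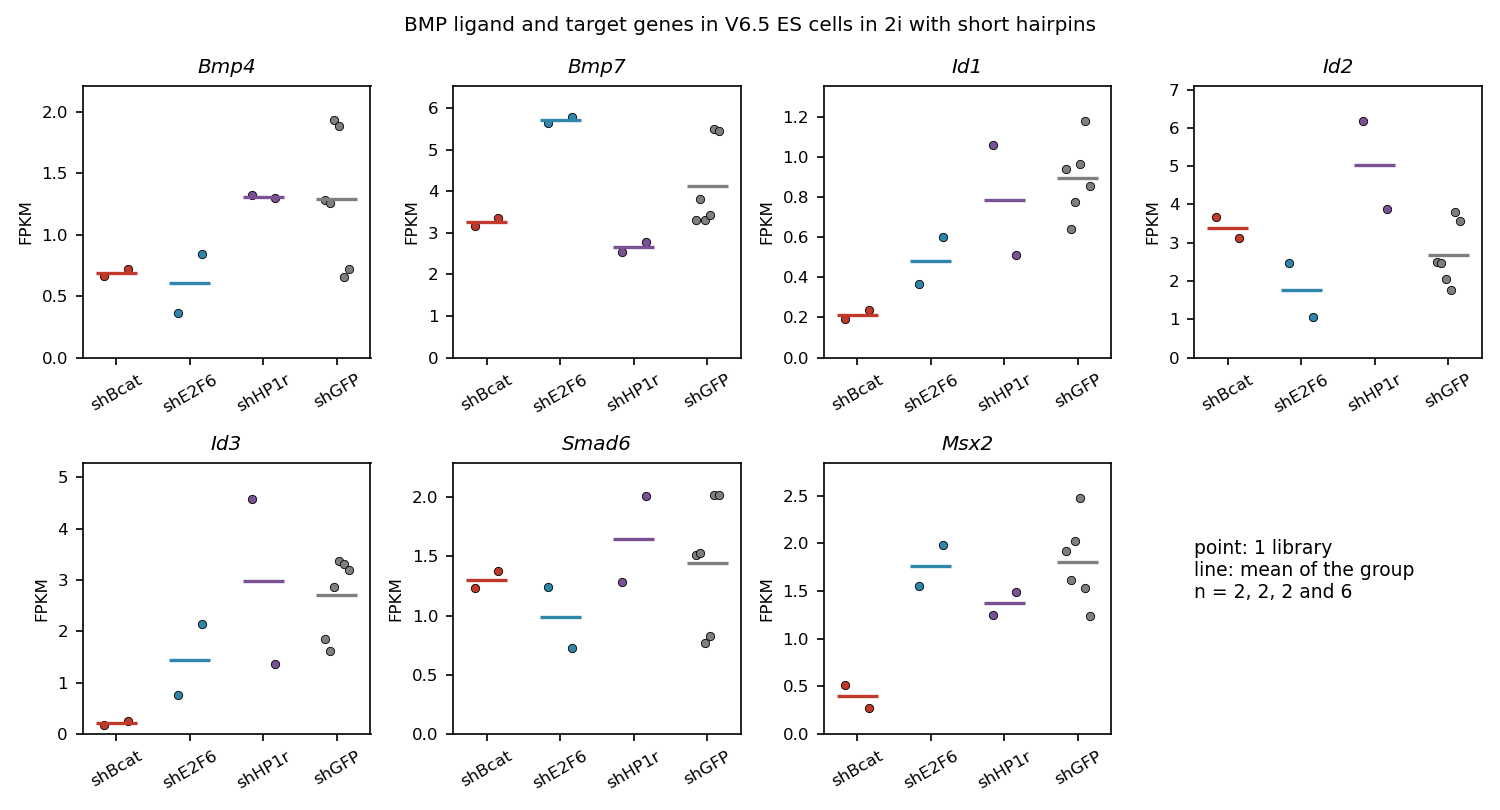
Levels in FPKM (vertical axis) of the 7 listed genes in V6.5 ES cells in 2i with shBcat, shE2F6, shHP1r or shGFP (horizontal axis); each point is 1 library and each line a group mean. The shBcat points of Id1, Id3 and Msx2 lie below every shGFP point, while those of Id2, Bmp7 and Smad6 lie within or at the edge of the shGFP points.

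The start regions of Id3 and Msx2, which fell with shBcat, and of Id2, which did not pass the test, are printed for comparison. Each is the 250 bases before the RefSeq gene start on the gene's strand in build GRCm38.p6, and RefSeq promoter entries matched 6 of the 8 members. Id3 is shown from chr4:136143572-136143821 (plus strand), Msx2 from chr13:53472781-53473030 (minus strand) and Id2 from chr12:25096093-25096342 (minus strand). Capitals mark the motifs found among GGCGCC, known as a GC-rich Smad1/5 box, CAGAC or its reverse complement GTCTG, known as a Smad box, and CTTTGAT or ATCAAAG, the Tcf/Lef core.
Id3: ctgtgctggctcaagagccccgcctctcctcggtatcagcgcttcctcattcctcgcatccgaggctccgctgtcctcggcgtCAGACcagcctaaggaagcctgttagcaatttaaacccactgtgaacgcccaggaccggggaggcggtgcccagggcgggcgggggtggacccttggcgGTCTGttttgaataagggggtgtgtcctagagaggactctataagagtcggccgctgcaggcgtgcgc
Msx2: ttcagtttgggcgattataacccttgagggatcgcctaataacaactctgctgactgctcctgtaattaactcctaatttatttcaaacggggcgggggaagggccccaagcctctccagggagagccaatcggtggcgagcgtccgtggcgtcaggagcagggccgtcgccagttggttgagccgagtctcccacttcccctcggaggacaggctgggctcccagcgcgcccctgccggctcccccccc
Id2: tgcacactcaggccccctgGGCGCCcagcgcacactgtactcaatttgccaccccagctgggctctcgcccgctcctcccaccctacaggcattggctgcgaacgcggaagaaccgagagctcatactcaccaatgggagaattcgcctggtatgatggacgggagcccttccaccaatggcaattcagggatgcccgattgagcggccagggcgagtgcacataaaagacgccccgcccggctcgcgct
The Id3 window held CAGAC 167 bases and GTCTG 68 bases before the start, and the Id2 window held GGCGCC 231 bases before it. The Msx2 window, like those of Bmp4, Smad6 and Msx1, held none of these letters. Among 32851 RefSeq windows of the same length, 42.2% held CAGAC or GTCTG, 9.59% held GGCGCC and 3.21% held CTTTGAT or ATCAAAG. A match is a description of these letters, not a shown binding site.

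The pathway in the same V6.5 cells was described through lists of BMP genes. These lists include the members, so their counts, here and below, repeat the member results in part. The targets tested here include Id1, Id2, Id3, Msx2 and Smad6. Of the targets, 5 of 15 tested fell with shBcat and 1 rose. Beside Id1, Id3 and Msx2, Gata2, a GATA transcription factor, averaged 0.977 ± 0.076 FPKM with shBcat (SD, n = 2) and 2.32 ± 0.51 FPKM with shGFP (SD, n = 6; limma adjusted p = 0.0218). Tbx3, a T-box factor that is also a marker of naive ES cells, averaged 11.8 FPKM with shBcat and 25.9 FPKM with shGFP (limma adjusted p = 0.0437). Gata3, a GATA factor of trophoblast and ectoderm, was the target that rose, to 2.25 FPKM with shBcat against 1.07 FPKM with shGFP (limma adjusted p = 0.0264). The median log2 change of the 15 targets was -0.05, beside 0.01 over all genes tested.

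None of the 2 ligands (Bmp4 and Bmp7), 5 receptors, 3 Smad transducers and 11 intracellular inhibitors (Smad6 among them) tested passed the threshold with shBcat. Of 7 secreted antagonists, Twsg1, which binds BMPs together with chordin, rose to 15.3 ± 0.49 FPKM with shBcat (SD, n = 2) against 10.6 ± 1.3 FPKM with shGFP (SD, n = 6; limma adjusted p = 0.0242). Of the 3 E-proteins that Id proteins bind, 2 fell. Tcf4 averaged 2.8 FPKM with shBcat and 4.47 FPKM with shGFP (limma adjusted p = 0.0239), and Tcf12 averaged 3.27 FPKM with shBcat and 4.63 FPKM with shGFP (limma adjusted p = 0.0247). With median-of-ratios scaling 0 of the 3 E-proteins passed, while the receptor Acvr1 and the inhibitor Smad7 were called lower. Beside these genes, the summed mesoderm markers (5 of 8 listed in the table) had 1.55 to 1.7 FPKM with shBcat against 4 to 8.43 FPKM with shGFP. The summed neuroectoderm markers (6 of 8) had 12.1 FPKM in both shBcat libraries against 6.47 to 9.15 FPKM with shGFP, and of the 4 tested only Sox1 was called, higher. The 9 formative markers summed to 33.8 to 35.6 FPKM with shBcat against 20.7 to 24.4 FPKM with shGFP. Of the 7 formative markers tested only Otx2 was called, higher, and their median log2 change was -0.26, so the sum does not describe the list as a whole. Trophoblast markers summed to 59.1 to 62 FPKM with shBcat against 39.2 to 57.2 FPKM with shGFP, and of the 5 tested Krt8 and Krt18 rose and Eomes fell. Primitive endoderm markers (7 of 9) summed to 8.44 to 8.66 FPKM with shBcat against 2.61 to 7.65 FPKM with shGFP, with none of the 4 tested called. Fibroblast or feeder markers (5 of 9) summed to 1.12 to 1.18 FPKM with shBcat against 1.86 to 4.28 FPKM with shGFP, with none of the 2 tested called. The part of these cell states in the changes of the BMP genes was not tested, and in bulk RNA fewer cells of a type and less RNA per cell cannot be told apart.

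With shE2F6, none of the 7 members passed the threshold against shGFP, and 1.06% of all genes did. At an unadjusted p under 0.05 there were 2, Bmp7 and Id1. Bmp7 had 5.64 and 5.78 FPKM with shE2F6, against 3.32, 3.81, 3.31, 3.44, 5.49 and 5.45 FPKM with shGFP, so the shE2F6 libraries were above all 6 shGFP libraries but close to replicates 5 and 6 (log2 change 0.41, SE 0.18, limma adjusted p = 0.138). Id1 had 0.365 and 0.598 FPKM with shE2F6, below the shGFP range of 0.639 to 1.18 FPKM (limma adjusted p = 0.121). Of all genes, 7.32% were higher and 26.5% lower with shE2F6 without overlap between the groups. Id3 had 0.757 and 2.14 FPKM with shE2F6, one library below and one inside the shGFP range of 1.61 to 3.38 FPKM. Bmp4 had 0.362 and 0.844 FPKM with shE2F6, against 1.28, 1.26, 1.93, 1.88, 0.654 and 0.718 FPKM with shGFP, so that the groups overlapped (log2 change -0.49, limma adjusted p = 0.151). With a term for the 4 libraries with a high mitochondrial share, Bmp4 was called lower with shE2F6 (log2 change -0.87, limma adjusted p = 0.0452). The high mitochondrial share of both shE2F6 libraries stands beside these values, and shGFP replicates 3 and 4 came closest to it. In these replicates Bmp7 had 3.31 and 3.44 FPKM, Bmp4 1.93 and 1.88 FPKM and Id3 2.87 and 3.38 FPKM. Id1 had 0.777 and 0.965 FPKM there and Msx2 2.03 and 2.48 FPKM. The values of these genes lay outside those of shE2F6, but the share of all genes that did so between these libraries was not counted. The Id2 and Smad6 values of these replicates overlapped those of shE2F6, and no test was run on these replicates alone. Over all genes the median log2 change was -0.20, and scaling by the median of ratios moved that median by 0.19.

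With shHP1r, none of the 7 members passed the threshold against shGFP, where 7.59% of all genes did. Bmp7 and Id2 had an unadjusted p under 0.05. Id2 had 6.19 and 3.87 FPKM with shHP1r, both above the shGFP range of 1.76 to 3.79 FPKM (log2 change 0.71, SE 0.26, limma adjusted p = 0.128). Bmp7 had 2.54 and 2.79 FPKM with shHP1r, both below the shGFP range of 3.31 to 5.49 FPKM (log2 change -0.46, limma adjusted p = 0.145). Groups that did not overlap were found for 14.2% of all genes in the higher direction and 9.84% in the lower. Id3 had 4.59 and 1.37 FPKM in the shHP1r libraries, 1 above and 1 below the whole shGFP range. These libraries also differed in their summed formative markers, 58.3 FPKM in replicate 1 and 21.7 FPKM in replicate 2. Their median absolute log2 difference was 0.193, against 0.0537 between the shBcat and 0.113 between the shE2F6 libraries. The column header of shHP1r replicate 2 has another form than those of the other FPKM libraries used, and whether it was processed apart is not known. In the pathway lists, the receptor Acvr2a, the transmembrane BMP-binding protein Crim1 and the Smad-binding inhibitor Tob2 rose with shHP1r. Acvr2a averaged 4.6 FPKM with shHP1r and 3.19 FPKM with shGFP, Crim1 2.62 FPKM with shHP1r and 1.27 FPKM with shGFP, and Tob2 10.7 FPKM with shHP1r and 6.42 FPKM with shGFP (limma adjusted p = 0.0206, 0.033 and 0.0348). With median-of-ratios scaling none of the 5 receptors passed with shHP1r, while Crim1 and Tob2 still did. Beside these values, the fibroblast or feeder markers (5 of 9 listed in the table) summed to 5.47 to 7.63 FPKM with shHP1r against 1.86 to 4.28 FPKM with shGFP, and Thy1 rose. The primitive endoderm markers (7 of 9) summed to 8.74 to 13.8 FPKM with shHP1r against 2.61 to 7.65 FPKM with shGFP, and Dab2 and Col4a1 rose. The part of either marker list in the values of the BMP genes was not tested. No gene of any pathway list passed with shE2F6 against shGFP, while with median-of-ratios scaling the intracellular inhibitor Skil was called higher.

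The hairpins were also set against each other, in comparisons that share libraries with those above. Msx2 was higher in cells with shE2F6 (1.55 and 1.98 FPKM) than with shBcat (0.515 and 0.275 FPKM), with a log2 change of 0.99 (SE 0.20, limma adjusted p = 0.013). It was also higher with shHP1r (1.25 and 1.49 FPKM) than with shBcat, by 0.77 (SE 0.20, limma adjusted p = 0.033). Of all genes, 15.2% were called between shE2F6 and shBcat, 9.31% between shHP1r and shBcat and 15.5% between shHP1r and shE2F6. Id3 was higher with shHP1r than with shBcat by 1.58 (SE 0.41, limma adjusted p = 0.0344), and that p was 0.19 and 0.158 without shBcat replicates 1 and 2 and 0.253 without shHP1r replicate 1. Without shBcat replicate 2 the adjusted p of Msx2 was 0.13 for shE2F6 against shBcat and 0.265 for shHP1r against shBcat, and the second of these calls was lost without any one of the 4 libraries compared (0.0909 to 0.265). With median-of-ratios scaling the adjusted p for shHP1r against shBcat was 0.104 for Msx2 and 0.0512 for Id3, so both calls were lost. Between shHP1r and shE2F6, Id2 was higher with shHP1r (log2 change 1.15, SE 0.32, limma adjusted p = 0.0391) and Bmp7 lower (log2 change -0.87, SE 0.22, limma adjusted p = 0.0276). Both calls were lost without single libraries, Bmp7 at up to 0.145 and Id2 at up to 0.218. Scaling by the median of ratios moved the all-gene median by 0.23 between shE2F6 and shBcat and by -0.30 between shHP1r and shE2F6.

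In QKO ES cells in 2i, no member passed the threshold between shBcat and shGFP, where 2.15% of all genes did, although 5 of the 7 tested had an unadjusted p under 0.05. The values of Bmp4, Id1, Id2 and Id3 were lower in all 3 shBcat libraries than in all 3 shGFP libraries. Such a lower value without overlap was seen for 24.6% of all genes.

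Id3 was the highest of the members in this line, with 16.7, 19.6 and 17.6 TPM with shBcat against 21.3, 27.6 and 22 TPM with shGFP. Its means were 17.9 ± 1.5 TPM with shBcat and 23.6 ± 3.5 TPM with shGFP (SD, n = 3 each), a log2 change of -0.37 (SE 0.11, limma adjusted p = 0.0792). Id1 had 1.47, 1.32 and 1 TPM with shBcat against 2.24, 3.35 and 2.14 TPM with shGFP (log2 change -0.65, SE 0.16, limma adjusted p = 0.0629). The Id1 mean with shBcat was thus 0.49 of the shGFP mean. Id2 had 6.67, 6.87 and 6.21 TPM with shBcat against 8.57, 9.4 and 7.95 TPM with shGFP (log2 change -0.34, SE 0.08, limma adjusted p = 0.0617).

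The ligands had changes of opposite sign in these QKO values, neither past the threshold. Bmp4 had 3.97, 2.95 and 3.22 TPM with shBcat against 5.19, 9.22 and 5.36 TPM with shGFP, where replicate 2 was the highest shGFP library (log2 change -0.76, SE 0.20, limma adjusted p = 0.072). Bmp7 had 4.04, 5.53 and 5.47 TPM with shBcat against 3.48, 2.93 and 4.31 TPM with shGFP, and the groups overlapped (limma adjusted p = 0.143). Msx2 had 6.29, 5.81 and 5.64 TPM with shBcat against 6.42, 6.03 and 5.95 TPM with shGFP, overlapping groups with a log2 change of -0.05 (SE 0.08, limma adjusted p = 0.741). Smad6 averaged 3.95 TPM with shBcat and 4.51 TPM with shGFP (limma adjusted p = 0.532). Msx1 stayed below the filter, at 0.31 to 0.43 TPM with shBcat and 0.36 to 0.62 TPM with shGFP.

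**Figure D2:**
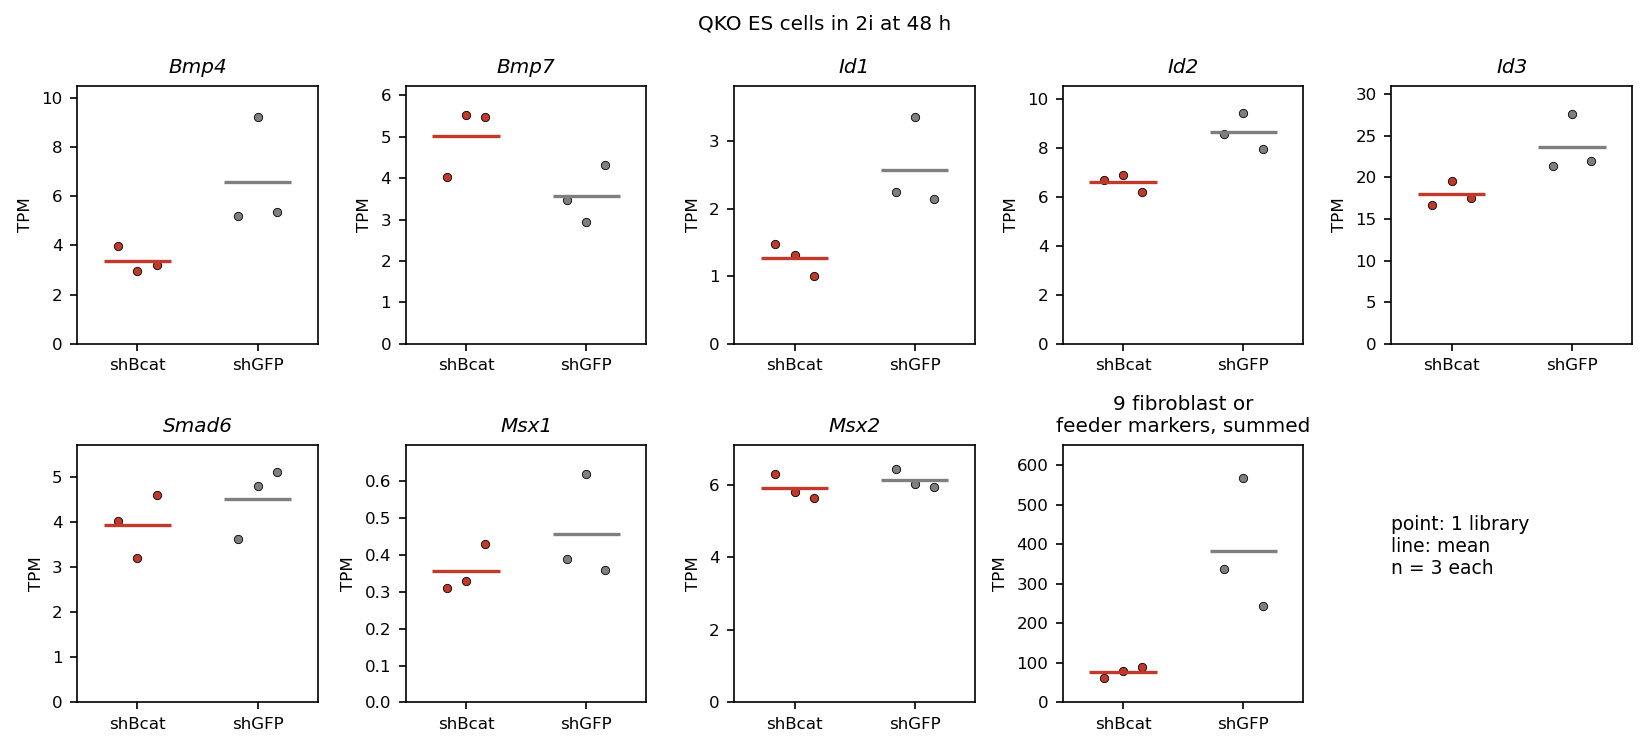
Levels in TPM (vertical axis) of the 8 genes, and the sum of 9 fibroblast or feeder markers, in QKO ES cells in 2i at 48 h with shBcat or shGFP (horizontal axis); points are libraries and lines are means of 3. Bmp4, Id1, Id2 and Id3 show no overlap, as does the marker sum.

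Secreted antagonists were the pathway list with calls in QKO cells, 3 of 11 tested falling. Nbl1, a DAN-family antagonist, averaged 2.25 ± 0.35 TPM with shBcat and 8.74 ± 3.4 TPM with shGFP (SD, n = 3 each; limma adjusted p = 0.0422). Grem1, which sequesters BMP2 and BMP4, averaged 0.393 ± 0.085 TPM with shBcat and 1.71 ± 0.44 TPM with shGFP (SD, n = 3 each; limma adjusted p = 0.0435). Bmper, a BMP-binding extracellular regulator, averaged 0.673 ± 0.032 TPM with shBcat and 3.03 ± 1.3 TPM with shGFP (SD, n = 3 each; limma adjusted p = 0.046). The 9 fibroblast or feeder markers moved with them, summing to 62.7 to 90.8 TPM with shBcat against 243 to 568 TPM with shGFP, and 5 of the 9 fell (Col1a1, Col3a1, Dcn, Lum and Postn). Primitive endoderm markers summed to 34.5 to 49.1 TPM with shBcat against 60.1 to 110 TPM with shGFP, with none of the 6 tested called. This list shares Pdgfra with the fibroblast or feeder list. The part of these cells in the values of Bmp4, the Id genes and the antagonists was not tested. No ligand, receptor, Smad transducer, intracellular inhibitor, target or E-protein passed.

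On the way from 2i to epiLC, the members split into groups with different courses. At 24 h, 7 of 8 members differed from 2i, but so did 76% of all genes, so the count itself says little about the members, and their sizes and directions are given instead. From 24 to 48 h 8 of 8 members were called, where 74.2% of all genes were. The p-values here rest on 2 libraries a time.

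Among these 3 times, the ligand Bmp7 was low at 24 h. It had 8.4 and 8.64 TPM in 2i, 0.62 and 0.45 TPM at 24 h and 6.61 and 6.43 TPM at 48 h. The 24 h mean was 0.0628 of the 2i mean (log2 change -2.63, SE 0.08, limma adjusted p = 4.03e-07), and the 48 h mean was 12.2 times the 24 h mean (limma adjusted p = 1.08e-06). At 48 h Bmp7 was still below 2i by a log2 change of -0.34 (limma adjusted p = 0.00693), in a comparison that called 7 of the 8 members and 75.9% of all genes. Bmp4 had 3.06 and 2.91 TPM in 2i, 2.67 and 3.63 TPM at 24 h and 2 and 2.33 TPM at 48 h. Its values at 24 h enclosed those in 2i (limma adjusted p = 0.736), and at 48 h it was lower than at 24 h (log2 change -0.38, SE 0.12, limma adjusted p = 0.0274). It was also lower at 48 h than in 2i (log2 change -0.33, limma adjusted p = 0.044). Both calls were lost without single libraries, with adjusted p of up to 0.141 against 24 h and 0.188 against 2i.

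The Id genes rose, each on its own schedule. Id2 had 2.96 and 3.18 TPM in 2i, 9.26 and 9.11 TPM at 24 h and 17.7 and 15.3 TPM at 48 h, so that most of its log2 rise came by 24 h (1.32 at 24 h against 2i, and 0.78 at 48 h against 24 h; limma adjusted p = 6.08e-06 and 9.79e-05). Id3 had 1.91 and 2.65 TPM in 2i, 5.82 and 5.49 TPM at 24 h and 12.3 and 11.4 TPM at 48 h, with log2 rises of 1.03 and 0.95 in the same steps (limma adjusted p = 0.000142 and 0.000242). Id1 had 2.59 and 2.31 TPM in 2i, 2.9 and 3.25 TPM at 24 h and 17 and 14.8 TPM at 48 h. Its rise lay almost wholly in the second day, 0.24 by 24 h (limma adjusted p = 0.0484, lost under several alternatives) and 2.05 from 24 to 48 h (limma adjusted p = 2.59e-06). At 48 h the means of Id1, Id2 and Id3 were 6.5, 5.37 and 5.19 times those in 2i.

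Smad6 dipped and came back. It had 5.56 and 4.62 TPM in 2i, 3.5 and 3.52 TPM at 24 h and 5.64 and 5.58 TPM at 48 h. The fall by 24 h was -0.43 (limma adjusted p = 0.00347) and the rise from 24 to 48 h was 0.55 (limma adjusted p = 0.00105), and at 48 h it did not differ from 2i past the threshold (log2 change 0.12, limma adjusted p = 0.24). Msx1 and Msx2, related homeobox repressors, went opposite ways. Msx1 had 0.65 and 0.9 TPM in 2i, 2.77 and 2.75 TPM at 24 h and 4.19 and 4.35 TPM at 48 h, a log2 rise of 1.57 over the 48 h (limma adjusted p = 6.39e-06). Msx2 had 2.73 and 3.25 TPM in 2i, 0.25 and 0.16 TPM at 24 h and 0.39 and 0.5 TPM at 48 h. Its 24 h mean was 0.0686 of the 2i mean (log2 change -1.73, SE 0.10, limma adjusted p = 5.66e-06). The small rise of Msx2 from 24 to 48 h (0.26, limma adjusted p = 0.0476) was lost under several alternatives. Msx2 was the higher of this pair in 2i and Msx1 at both epiLC times, without overlap in any of them.

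**Figure D3:**
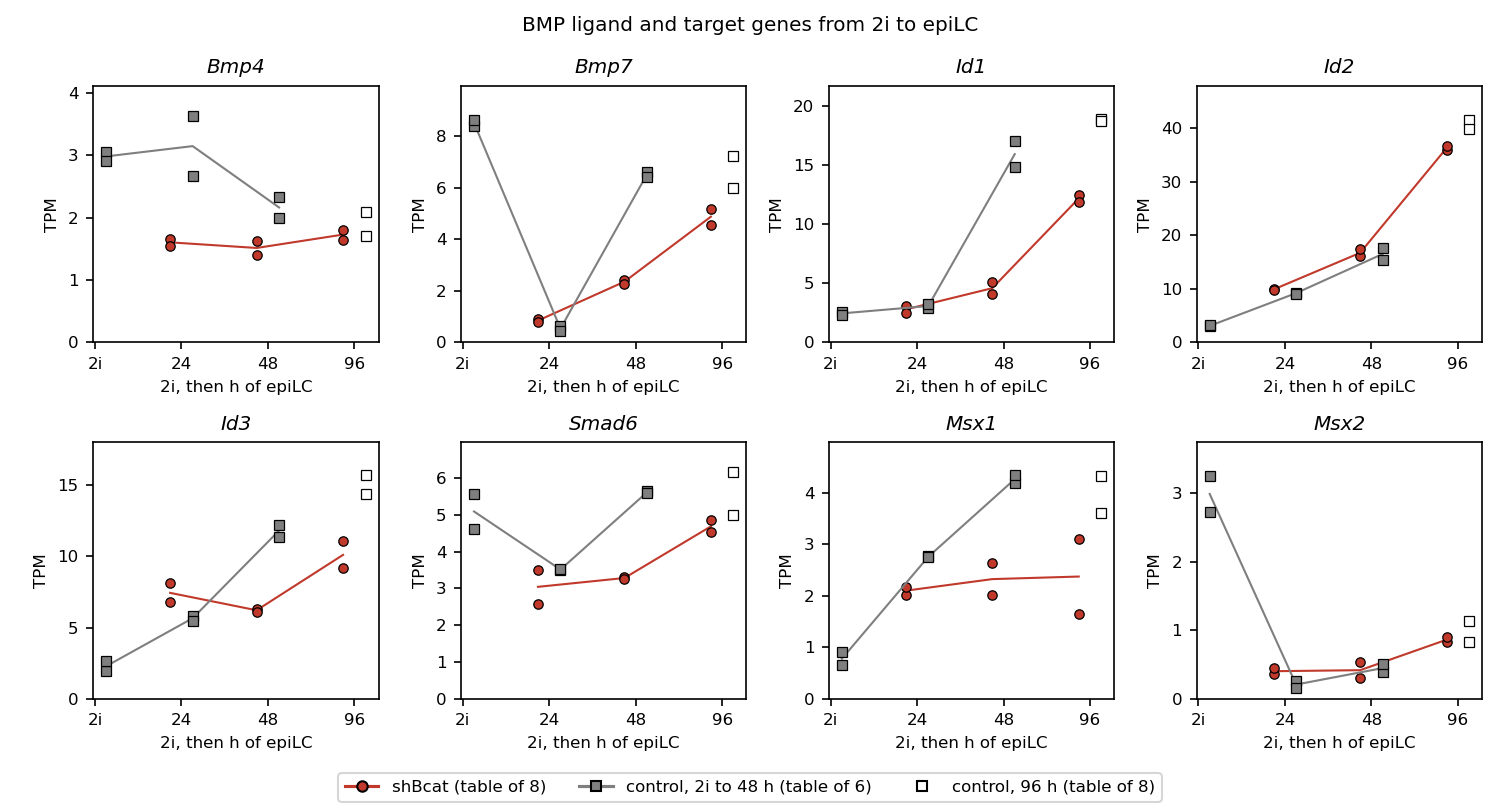
Levels in TPM (vertical axis) of the 8 genes in 2i and at 24, 48 and 96 h of epiLC (horizontal axis); circles are shBcat libraries, filled squares control libraries of another table, open squares the 96 h controls of the shBcat table, and lines join means within a table. Bmp7 is low at 24 h in both tables, Id1 climbs between 24 and 48 h in the control table, and shBcat circles at 96 h lie below the open squares for Id1, Id2 and Id3.

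Genes of the pathway lists, which include the members, changed in both directions by 24 h and mostly upward from 24 to 48 h. In that second step the median log2 change over all genes was 0.12, and 7490 genes were called higher and 4789 lower. Targets counted 7 higher and 8 lower of 16 tested at 24 h against 2i, then 15 higher and 0 lower of 16 at 48 h against 24 h, with a median log2 change of 0.49. The 7 higher at 24 h include the members Id1, Id2, Id3 and Msx1, and the 8 lower include Msx2 and Smad6. All of these members are among the 15 higher at 48 h. With median-of-ratios scaling 11 of the 16 were higher and 0 lower at 48 h, beside 5923 higher and 6371 lower of all genes. Tbx3 fell to 1.21 ± 0.014 TPM at 24 h against 36.1 ± 0.13 TPM in 2i (SD, n = 2 each; limma adjusted p = 6.44e-08). Zfp423, a zinc-finger partner of Smads, rose to 35.4 ± 0.11 TPM at 24 h against 1.61 ± 0.28 TPM in 2i (SD, n = 2 each; limma adjusted p = 9.45e-08). Junb, an AP-1 subunit, rose to 24.2 ± 2.2 TPM at 48 h against 3.35 ± 0.15 TPM at 24 h (SD, n = 2 each; limma adjusted p = 7.66e-07).

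Of the receptors, 1 rose and 3 fell of 5 by 24 h, and all 5 rose from 24 to 48 h. The type II receptor Bmpr2 averaged 4.54 TPM at 24 h and 6.81 TPM in 2i, and then 12 TPM at 48 h. Acvr2b, another type II receptor, averaged 37.1 TPM at 48 h and 16.1 TPM at 24 h (limma adjusted p = 3.85e-06), and the type I receptor Bmpr1a 49.9 TPM at 48 h and 30.2 TPM at 24 h (limma adjusted p = 5.56e-06). All 3 Smad transducers tested rose from 24 to 48 h, Smad4 to 54.7 TPM at 48 h against 31.6 TPM at 24 h. Of 9 secreted antagonists, 7 rose and none fell in that step; with median-of-ratios scaling 7 rose and 2 fell, while the receptor and Smad counts were the same. Fst, which encodes follistatin, rose to 15.2 ± 1.9 TPM at 48 h against 2.03 ± 0.28 TPM at 24 h (SD, n = 2 each; limma adjusted p = 2.57e-06). Sost, a DAN-family protein best known as a Wnt antagonist, had 7.46 TPM at 48 h and 0.005 TPM at 24 h. Of the ligands, Bmp8b rose at both steps, with 0.66 TPM in 2i, 1.18 TPM at 24 h and 3.15 TPM at 48 h. Of 11 intracellular inhibitors, 4 rose and 5 fell by 24 h, with Smad7 at 27.1 ± 1.6 TPM at 24 h and 10.8 ± 0.31 TPM in 2i (SD, n = 2 each; limma adjusted p = 1.7e-06). Scaling by the median of ratios moved the all-gene median of the step from 24 to 48 h by -0.15.

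Markers of other cell types moved in the same step. Trophoblast markers summed to 206 to 214 TPM at 48 h against 39.1 to 40.1 TPM at 24 h, and 7 of 9 tested rose. Primitive endoderm markers summed to 54.8 to 61.4 TPM at 48 h against 13 to 13.8 TPM at 24 h, and 4 of 4 tested rose. Neuroectoderm markers summed to 110 to 115 TPM at 48 h against 50.5 TPM at 24 h, with 5 of 5 tested rising, and mesoderm markers to 13.9 to 15.2 TPM at 48 h against 4.68 to 5.26 TPM at 24 h, with 4 of 5 rising. Formative markers went the other way in sum, with 439 to 450 TPM at 48 h against 989 to 998 TPM at 24 h. Of the 9 tested, 5 fell and 3 rose. Naive markers summed to 242 to 258 TPM at 48 h against 195 to 201 TPM at 24 h, and of the 10 tested 5 rose and 3 fell. The targets Gata3 and Tbx3, which rose in this step, are also members of marker lists. The part of such cells in the changes of the members and of the pathway lists was not tested.

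At 96 h of epiLC, Id1 and Id3 fell with shBcat, 2 of the 7 members tested, where 4.82% of all genes were called. Bmp4, Bmp7, Id2, Smad6 and Msx1 did not pass the threshold. Values of 6 of the 7 were lower with shBcat without overlap, as were those of 24.6% of all genes.

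Id1 had 12.5 and 11.9 TPM with shBcat, against 18.9 and 18.7 TPM in controls. Its mean was 12.2 ± 0.4 TPM with shBcat and 18.8 ± 0.13 TPM in controls (SD, n = 2 each), a ratio of 0.648 and a log2 change of -0.59 (SE 0.11, limma adjusted p = 0.0263). Id3 had 9.17 and 11.1 TPM with shBcat, against 14.4 and 15.7 TPM in controls. The groups did not overlap, with a ratio of means of 0.671 and a log2 change of -0.54 (SE 0.11, limma adjusted p = 0.037). Without any one of the 4 compared libraries, the adjusted p of Id1 was 0.0885 to 0.12, and that of Id3 was 0.0408 without shBcat replicate 2 and 0.0929 to 0.172 without any one of the others. The Id3 call was also lost without either 48 h shBcat library, which enter the shared estimate of spread, at 0.0736 and 0.0739. With no filter on low values neither gene was called (0.0972 for Id1 and 0.122 for Id3).

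Id2 was the highest member at 96 h, with 35.8 and 36.7 TPM with shBcat against 41.6 and 39.9 TPM in controls, close groups that did not overlap (log2 change -0.16, limma adjusted p = 0.2). Bmp7 had 4.57 and 5.19 TPM with shBcat against 6.01 and 7.23 TPM in controls (limma adjusted p = 0.111). Msx1 had 1.64 and 3.11 TPM with shBcat against 3.61 and 4.34 TPM in controls, and its shBcat libraries differed more from each other than the controls did (log2 change -0.59, SE 0.20, limma adjusted p = 0.158). Smad6 had 4.85 and 4.52 TPM with shBcat against 5 and 6.16 TPM in controls (limma adjusted p = 0.453). Bmp4 overlapped, with 1.65 and 1.81 TPM with shBcat against 1.71 and 2.1 TPM in controls (limma adjusted p = 0.73). Msx2 stayed mostly below the filter, at 0.82 and 0.9 TPM with shBcat and 0.82 and 1.13 TPM in controls.

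Of 15 targets tested at 96 h, 4 fell with shBcat and none rose, with a median log2 change of -0.16 beside -0.01 over all genes. Beside Id1 and Id3 these were Junb, at 5.17 ± 0.68 TPM with shBcat and 9.32 ± 1.8 TPM in controls, and Dlx3, a distal-less homeobox gene, at 0.765 ± 0.26 TPM with shBcat and 1.65 ± 0.092 TPM in controls (SD, n = 2 each; limma adjusted p = 0.0362 and 0.0439). The antagonist Sost fell as well, with 2.95 ± 0.17 TPM with shBcat and 5.3 ± 0.49 TPM in controls (SD, n = 2 each; limma adjusted p = 0.0109), the only call among 9 antagonists. None of 5 ligands, 5 receptors, 3 Smad transducers and 11 intracellular inhibitors passed. Feeder markers summed to 10.1 to 10.2 TPM with shBcat and 9.75 to 9.84 TPM in controls, and naive markers to 216 to 231 TPM with shBcat and 226 to 229 TPM in controls. Neuroectoderm markers summed to 94.2 to 96.3 TPM with shBcat against 76 to 80.4 TPM in controls, and trophoblast markers to 134 to 146 TPM with shBcat against 167 to 171 TPM in controls, and their part in the Id values was not tested.

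Within shBcat epiLC, the course over time could be followed at 24, 48 and 96 h. Id1 had 3.09 and 2.49 TPM at 24 h, 4.09 and 5.08 TPM at 48 h and 12.5 and 11.9 TPM at 96 h, rising at both steps by 0.56 and 1.24 (limma adjusted p = 0.00701 and 0.000265). Id2 had 9.98 and 9.77 TPM at 24 h, 16.1 and 17.4 TPM at 48 h and 35.8 and 36.7 TPM at 96 h, with rises of 0.70 and 1.07 (limma adjusted p = 0.000187 and 5.25e-05). Id3 had 8.11 and 6.77 TPM at 24 h, 6.32 and 6.11 TPM at 48 h and 9.17 and 11.1 TPM at 96 h. Unlike the other Id genes it did not pass the threshold in the first step (log2 change -0.22, limma adjusted p = 0.163), and it rose in the second (0.62, limma adjusted p = 0.00501). Bmp7 had 0.89 and 0.8 TPM at 24 h, 2.43 and 2.28 TPM at 48 h and 4.57 and 5.19 TPM at 96 h, rising by 0.86 and then 0.81 (limma adjusted p = 0.000984 and 0.00159). Smad6 averaged 3.28 TPM at 48 h and 4.68 TPM at 96 h (limma adjusted p = 0.0465, lost without any one of the 4 libraries compared, at 0.101 to 0.162). Msx1, at 1.64 to 3.11 TPM over the 6 libraries, and Bmp4, at 1.41 to 1.81 TPM, passed in neither step. Of all genes, 33.4% were called from 24 to 48 h and 35% from 48 to 96 h.

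The 24 and 48 h libraries with and without shBcat lie in different tables, so their levels are set side by side with no test. At 48 h, Id1 had 4.09 and 5.08 TPM with shBcat beside 17 and 14.8 TPM in controls, and Id3 had 6.32 and 6.11 TPM with shBcat beside 12.3 and 11.4 TPM in controls. Bmp7 had 2.43 and 2.28 TPM with shBcat beside 6.61 and 6.43 TPM in controls, and Msx1 2.02 and 2.63 TPM with shBcat beside 4.19 and 4.35 TPM in controls. Id2 had 16.1 and 17.4 TPM with shBcat beside 17.7 and 15.3 TPM in controls, values that interleave. At 24 h the Id1 values were 3.09 and 2.49 TPM with shBcat and 2.9 and 3.25 TPM in controls. The Id2 values were 9.98 and 9.77 TPM with shBcat and 9.26 and 9.11 TPM in controls. Unlike at 48 h, Id3 was higher with shBcat at 24 h, with 8.11 and 6.77 TPM beside 5.82 and 5.49 TPM in controls. Bmp7 was also higher with shBcat at 24 h, with 0.89 and 0.8 TPM beside 0.62 and 0.45 TPM in controls. Msx1 was lower at 24 h as at 48 h, with a mean of 2.1 TPM with shBcat beside 2.76 TPM in controls. Differences between the tables in library making and scaling cannot be told apart from the hairpin here.

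The shBcat hairpin was thus tested in 3 settings that share no control library. Id1 and Id3 were lower without overlap in each of them, 2 of the 6 members tested in all 3 settings, and 1.23% of the 11996 genes tested in all 3 were lower without overlap in each. For Id3 the ratio of the shBcat mean to the control mean was 0.0806 in V6.5 ES cells, 0.759 in QKO cells and 0.671 in epiLC at 96 h. For Id1 it was 0.24 in V6.5 ES cells, 0.49 in QKO cells and 0.648 in epiLC at 96 h. Msx2 was called lower in V6.5 ES cells and overlapped in QKO cells. The differences between settings were not tested.

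**Figure D4:**
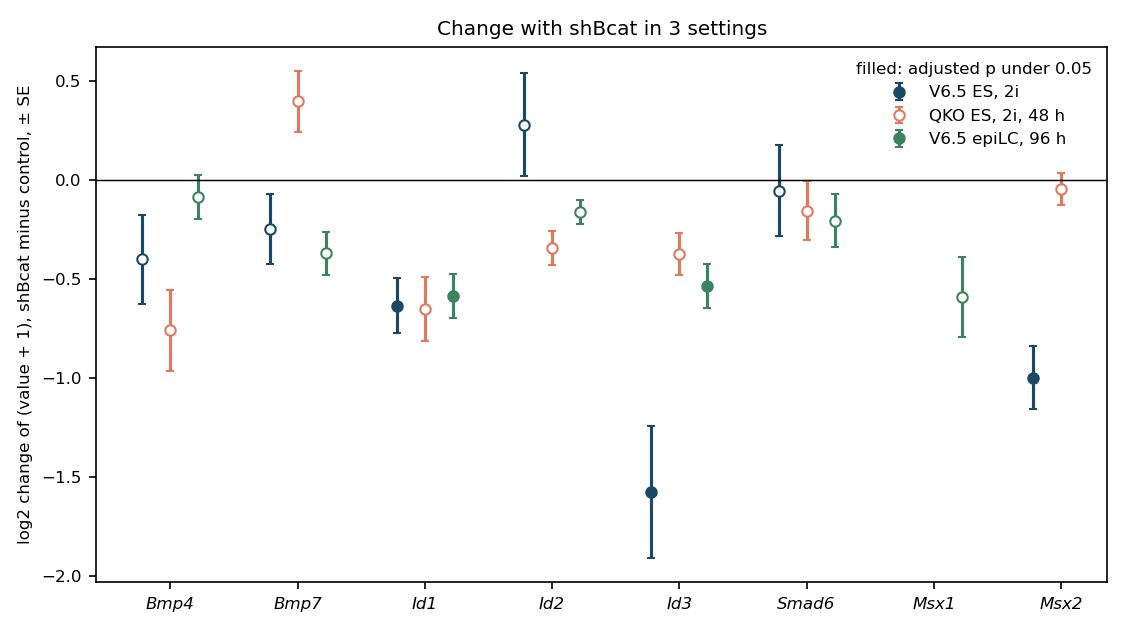
Log2 change of (value + 1) with shBcat minus its control (vertical axis, bars are ± SE) for each gene (horizontal axis) in V6.5 ES cells in 2i, QKO ES cells in 2i and V6.5 epiLC at 96 h; filled points have a limma adjusted p under 0.05. Id1 and Id3 lie below 0 in all 3 settings, with filled points for V6.5 ES cells and epiLC.

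The order of the members by level differed between groups of separate tables. Cell state cannot be told apart there from cell line, hairpin and processing. V6.5 cells in 2i without a named hairpin had the highest means for Bmp7 (8.52 TPM) and Smad6 (5.09 TPM), with Id3 at 2.28 TPM. In V6.5 ES cells with shGFP the order of mean FPKM was Bmp7 (4.14), Id3 (2.7), Id2 (2.69), Msx2 (1.8), Smad6 (1.45), Bmp4 (1.29) and Id1 (0.893), and the libraries of each gene overlapped those of its neighbour in this order. In QKO cells with shGFP Id3 (23.6 TPM) lay above all others, followed by Id2 (8.64 TPM) and Bmp4 (6.59 TPM), which overlapped, and Msx1 was lowest (0.457 TPM). In control epiLC at 96 h the order began with Id2 (40.7 TPM), Id1 (18.8 TPM) and Id3 (15.1 TPM), which did not overlap one another, and ended with Bmp4 (1.91 TPM) and Msx2 (0.975 TPM).

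Across the libraries of a table, Id1 and Id3 varied together. Their Pearson correlation on log2(value + 1) was 0.94 over the 12 FPKM libraries, 0.91 over the 6 QKO libraries, 0.89 over the 6 libraries of 2i and control epiLC and 0.88 over the 8 libraries of shBcat and 96 h epiLC. In the same order, Id1 and Id2 had 0.09, 0.98, 0.84 and 0.98, and Id2 and Id3 had 0.05, 0.92, 0.99 and 0.80. Id1 and Id3 were thus the closest member pair in the FPKM libraries, while other member pairs were closer in each TPM table. Group differences and shared libraries enter these values. Among 10723 genes that passed the filter in all 4 tables, the closest to Id1 by mean correlation over the tables were Pcdhgc3 (0.91), whose constant exons are shared within its gene cluster, Zmiz1 (0.91) and Id3 (0.91), and the closest to Id3 were Id1 (0.91), Hoxa7 (0.90) and Errfi1 (0.88). For Id2 they were Soga1 (0.96), Fkbp10 (0.95) and Fzd2 (0.95), for Bmp7 Dock1 (0.92), Plekha2 (0.90) and Prep (0.90), and for Smad6 Ets2 (0.87), Bloc1s5 (0.86) and Rab11fip3 (0.86). Bmp4 had no gene above 0.64 (Phospho2). For Msx2, over 3 tables and 24 libraries, the closest was Fig4 (0.87).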

How the data were processed

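RNA was extracted with TRIzol and treated with DNase, per the labels' protocols. The FPKM values (scaled for transcript length and library size) were made by the authors with TopHat2 2.0.13, Bowtie2 and Cufflinks 2.2.1, and the deposited TPM values (scaled to a fixed sum per library) with STAR and RSEM, on build mm10, tools as named per the submitters' processing notes, which give no roles. Depth is unknown, so no counting intervals are given. One further column of per-sample values, matched to no library (1 in all), was not used. Each table was fitted alone with limma 3.58.1 in R 4.3.3 (statmod 1.5.0), with a term per group over all its libraries, on log2(value + 1), for genes at 1 or more in at least 2 libraries, with a variance trend, robust moderation, two-sided tests and Benjamini-Hochberg adjustment over all genes (threshold 0.05), in 13 comparisons. The method was tested on simulated data. The members and lists were chosen with earlier results of these data known. Named genes were the members, the hairpins' target genes, up to 4 genes past the threshold with the smallest adjusted p per list (Tbx3 and Gata3 in V6.5 cells complete a count and were named after their values were seen), and up to 3 genes most correlated with each member (those of Msx1 are not reported here). Alternatives changed the pseudocount, filter, moderation, libraries fitted, scaling, replicate block and, for FPKM, library pairs and a mitochondrial library-set term. Promoter letters and coordinates are RefSeq's (GRCm38.p6).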

Additional observations from a re-analysis of the deposited data

How the results depend on the processing

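Over 1641 member changes refitted under the alternatives, 1500 kept their direction and side of the threshold, 85 lost and 22 gained a call in the same direction, and 34 changed sign, none of those past the threshold. Calls of members in V6.5 shBcat cells against shGFP cells (3) fell to 0 with a minimum of 5 in 2 libraries, which leaves those low genes untested, to 0 with libraries averaged in pairs, where 0 of all genes were called, and to 1 with the replicate block. Member calls for shE2F6 against shGFP (0) became 2 with the replicate block (Bmp4, log2 change -0.52, adjusted p 0.0247, and Bmp7, 0.56, 0.00331) and 1 with the library-set term (Bmp4, -0.87, 0.0452). For shHP1r against shGFP (0) they became 1 with median-of-ratios scaling and 1 with the library-set term (Bmp7 in both). For shHP1r against shBcat (2) they became 0 with the minimum of 5, 0 with averaged pairs, 0 with median-of-ratios scaling, 1 with the compared groups alone and 1 with the replicate block. For shE2F6 against shBcat (1) they became 0 with the minimum of 5, 0 with averaged pairs, 2 with a pseudocount of 0.1, 2 with median-of-ratios scaling, 2 without mitochondrial transcripts, 3 with the compared groups alone and 3 with the replicate block. For shHP1r against shE2F6 (2) they became 1 with the minimum of 5 and 0 with averaged pairs. In epiLC at 48 h the minimum of 5 gave 5 against 24 h (8) and 4 against 2i (7). At 96 h, shBcat against controls (2) gave 0 with no filter on low values, 1 without variance trend or robust moderation and 1 with the compared groups alone. In QKO cells every alternative gave 0. The cause was not tested where none is given.

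Leaving out single libraries gave 0 to 3 member calls for shBcat against shGFP, 0 to 2 for shHP1r against shBcat, 0 to 2 for shE2F6 against shBcat, 0 to 2 for shHP1r against shE2F6 and 0 to 2 at 96 h. Where a group was left with 1 library, that library is assumed to vary like the other groups.

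Uncalled log2 changes that changed sign when single libraries were left out ranged as follows. Smad6 had -0.14 to 0.013 for shBcat against shGFP, -0.069 to 0.33 for shHP1r against shGFP, -0.015 to 0.39 for shHP1r against shBcat, and -0.072 to 0.26 for shBcat epiLC at 48 against 24 h. Msx2 had -0.12 to 0.10 for shE2F6 against shGFP. Id3 had -0.61 to 0.62 and Id1 -0.32 to 0.13 for shHP1r against shGFP. Bmp4 had -0.037 to 0.13 for shHP1r against shGFP, -0.31 to 0.13 for shE2F6 against shBcat, -0.12 to 0.22 for epiLC at 24 h against 2i, -0.18 to 0.010 for shBcat against controls at 96 h, and -0.11 to 0.0086 for shBcat epiLC at 48 against 24 h. Msx1 had -0.037 to 0.23 for shBcat epiLC at 48 against 24 h and -0.33 to 0.31 at 96 against 48 h. With a pseudocount of 0.1, Id3 for shHP1r against shGFP was -0.040. With median-of-ratios scaling it was -0.085, Bmp4 in the same comparison -0.031, Bmp4 for shE2F6 against shBcat 0.021, Msx2 for shE2F6 against shGFP 0.15 (0.040 without mitochondrial transcripts), and Msx2 in QKO cells 0.0035. With the library-set term, Smad6 had 0.13 for shE2F6 against shGFP, -0.075 for shHP1r against shGFP, 0.39 for shE2F6 against shBcat and -0.21 for shHP1r against shE2F6, and Msx2 had 0.12 for shHP1r against shE2F6.

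Replicate numbers were not taken as pairing the libraries: the deviations of same-numbered QKO libraries correlated at -0.012, -0.042 and 0.131, and the other comparisons share only 2 numbers. Of those, both pairs at 96 h had the largest value, 0.283, and the rest had -0.142 to 0.174. With the replicate block the adjusted p in V6.5 shBcat cells was 0.103 for Id1, 0.149 for Id3 and 0.0157 for Msx2, and at 96 h it was 0.0369 for Id1 and 0.047 for Id3. All genes called ranged over the alternatives from 0 to 3473 for shBcat against shGFP (1255), 0 to 7685 for shE2F6 against shGFP (153), 0 to 3296 for shHP1r against shGFP (1093), 8 to 932 in QKO cells (334) and 240 to 771 at 96 h (738). Without the filter on low values, Msx1 in QKO cells had a log2 change of -0.10 and Msx2 at 96 h of -0.08.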
